A study of Mus musculus with 12 samples.

Results

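Nuclear receptors are transcription factors, most of which bind DNA through a zinc finger domain and carry a pocket for a small lipid-soluble ligand. The 40 genes described here were listed by name and found by gene name on the array. They hold the vitamin D receptor gene Vdr, its dimer partners Rxra, Rxrb and Rxrg, the receptors of retinoic acid, fatty acids, oxysterols, thyroid hormone and steroids, the clock receptors, the Nr4a genes and further orphan receptors. All 40 were among the 27274 genes with a named probe. Of these 40, 31 were among the 16387 genes tested, because the scanner software marked the probe used as well above background on 3 or more of the 6 arrays in normal or in tumor. Each gene was taken from the probe with the brightest mean signal, and its other probes served as a check.

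Messenger RNA was measured in macrophages sorted from normal pancreas (6 arrays) and from pancreas tumor tissue (6 arrays) of female C57/B6 mice labelled as 4 to 5 months old. The design text names 3 kinds of mice as sources. These are wild-type mice, KPC mice, an engineered strain that develops pancreas cancer, and FLT3-CRE/LSL-YFP mice, in which cells descended from Flt3-expressing blood progenitors are marked by a fluorescent protein. The treatment protocol instead speaks of tumor implantation, for samples of both groups, and the genotype of each sample is not given. A sample name is shared by 2 arrays once in either group, and those arrays were averaged and counted once. This left 5 samples per group, called here normal replicates 1, 2 with 3, 4, 5 and 6, and tumor replicates 1, 2, 3, 4 with 6, and 5. Whether each name is an animal of its own is not stated, so the p-values refer to the spread among these samples, part of which may be technical.

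In macrophages these receptors link lipids, vitamins and hormones to gene expression. A ligand-bound receptor of the vitamin D, retinoic acid, fatty acid or oxysterol type sits on DNA as a heterodimer with a retinoid X receptor and exchanges corepressors for coactivators, while the glucocorticoid receptor dampens inflammatory genes. The REV-ERB and ROR receptors drive opposing arms of the circadian clock, and the Nr4a receptors are switched on within the immediate early response to stimulation. Levels are given on a log2 scale on which 0 is the array's 75th percentile of signal and each unit is a doubling. A level was not compared between probes, since brightness also depends on the probe.

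The share of probes well above background was 39.3% to 58.8% per array. Normal replicates 2 and 3 were dimmest, with 75th percentiles of 398 and 430.2, and normal replicate 6 was brightest, with 1547. All 15 macrophage identity genes tested, among them Csf1r, Adgre1 and Cd68, were well above background on all 12 arrays, and 0 passed the limma test between groups (1 at an unadjusted p under 0.05, median difference 0.0645). Transcripts of pancreatic acinar cells moved with the groups: all 21 tested had lower means in tumor, 17 of them past the threshold, and the mean of the list was 3.55 to 7.42 in normal and -2.93 to 1.99 in tumor samples. Resident macrophage markers (all 15 with lower means in tumor, 11 at an unadjusted p under 0.05 and 1 called) averaged 2.35 to 3.45 in normal samples against 0.23 to 1.84 in tumor samples, and monocyte markers (3 of 12, higher) -0.07 to 0.34 against 1.18 to 2.31. Neutrophil markers (1 of 12 called, higher) averaged -2.80 to -1.29 and -1.86 to 0.04, with 0 of 6 normal arrays showing S100a8 well above background, and dendritic cell markers (1 of 9, higher) 0.29 to 1.59 and 0.83 to 2.89. Of the islet (7 tested), ductal (12), endothelial (11), fibroblast (9) and lymphocyte (9) markers 0 were called by limma, and 4, 2, 3, 1 and 0 had an unadjusted p under 0.05. With normexp correction 5 resident, 2 neutrophil, 1 islet and 1 fibroblast marker were called. In sorted populations measured in bulk, fewer cells of a type and less RNA per cell cannot be told apart.

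The comparison asks how receptor transcripts in macrophages of pancreas tumors differ from those of the normal organ. Vdr rose in tumor samples and was the only receptor of the 31 to pass the test (limma, adjusted p = 0.0395). Its probe was well above background on 1 of 6 normal and 6 of 6 tumor arrays, so it entered the test through the tumor arrays. The size of its rise depended on how signal near background was treated. It was 10.5-fold as measured and 4.56-fold with dim signals raised to the background limit of their array. It was 2.43-fold with normexp background correction, which adds 50 to each corrected signal and so shrinks the folds of dim probes. The call was lost without 9 of the 10 samples in turn. Across all genes tested 0.83% passed in either direction (136 genes), 0.317% as higher and 0.513% as lower in tumor. The 31 receptors differed by a median of 0.068 on the log2 scale, against -0.0032 for all genes, with 17 above 0 and 14 below. At an unadjusted p under 0.05 there were 5 receptors with higher tumor means (Vdr, Nr4a2, Esrra, Rara and Nr4a3) and 2 with lower ones (Thra and Rora), or 7 of 31. Across all genes 12.9% met that mark, 6.69% with higher and 6.25% with lower tumor means. Vdr was also the only receptor whose groups did not overlap by the probe used, which held for 3.43% of all genes (1.77% with all tumor samples above and 1.66% below).

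**Figure D1:**
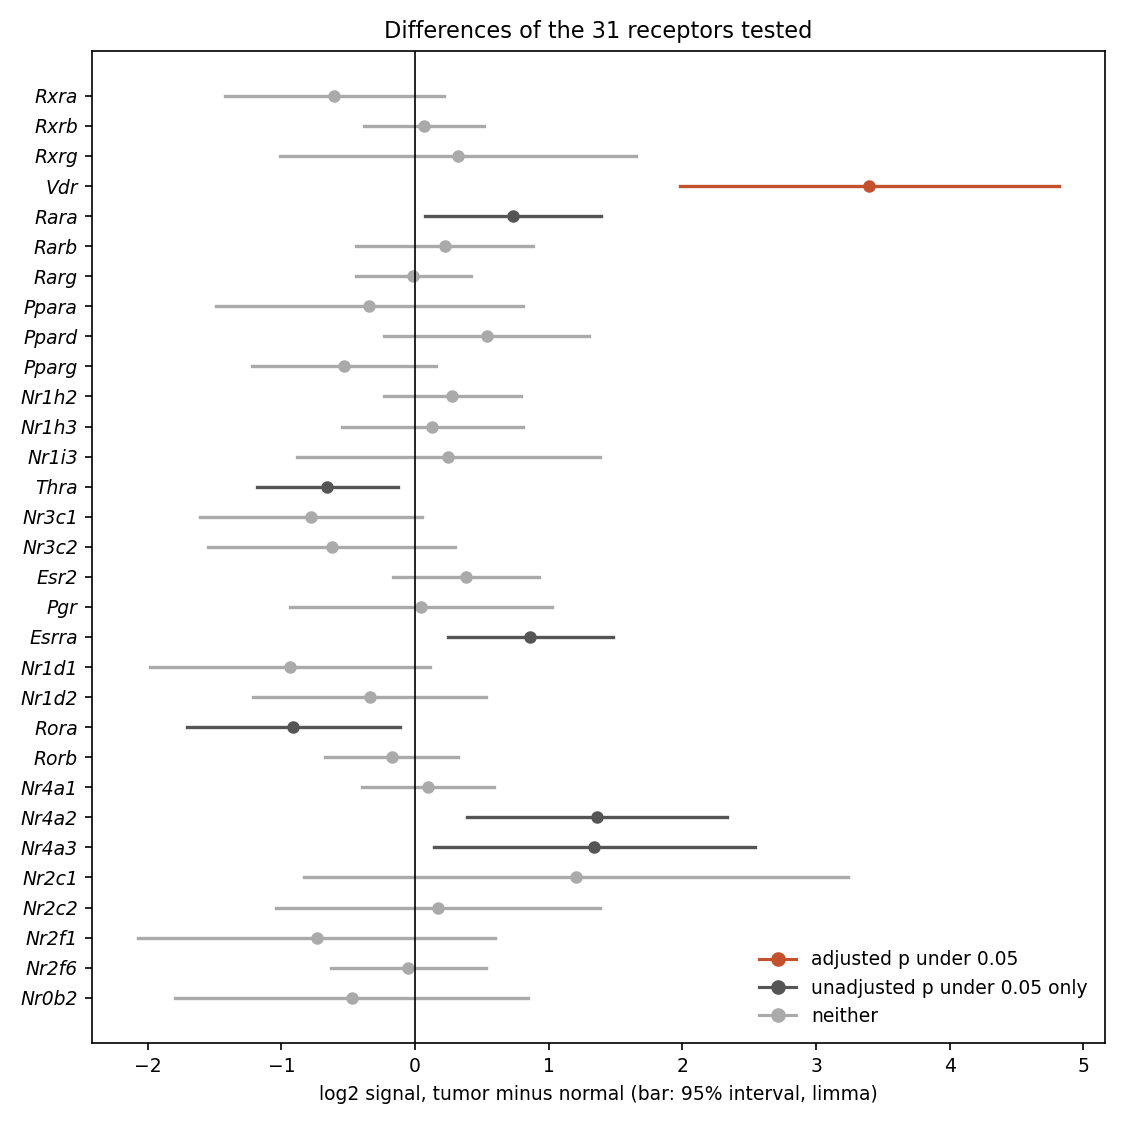
Difference in log2 signal, tumor minus normal, of the 31 receptors tested (points) with the 95% interval from limma (bars), ordered by role. The interval of Vdr runs from 1.98 to 4.82, and 6 other receptors have intervals that leave out 0 without passing the adjusted threshold.

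Detection varied widely across the family. The probes of 6 receptors were not well above background on any of the 12 arrays: Thrb, a thyroid hormone receptor, Esrrb, an estrogen-related receptor, the COUP factor Nr2f2, the germ cell receptor Nr6a1, and the hepatocyte nuclear factors Hnf4a and Hnf4g. A further 3 were above background on too few arrays to be tested. The bile acid receptor Nr1h4 was seen on 1 normal and 2 tumor arrays, the xenobiotic receptor Nr1i2 on 1 normal array, and the estrogen receptor Esr1 on 2 of either group. Among those tested, Vdr had the widest gap in detection, with 1 of 6 normal and 6 of 6 tumor arrays. The others with a gap were Nr2c1 (2 and 5), Nr1i3 (2 and 4), Pgr (1 and 3), Rxrg and Ppard (4 and 6 each), Nr2c2 (5 and 6) and Nr2f1 (6 and 5). For Rxrg and Ppard the normal arrays missed were replicates 2 and 3, and for Nr2c2 replicate 2. Those 2 arrays share 1 sample name and were the dimmest, so these gaps rest on 1 dim sample. Vdr, Nr2c1, Nr1i3 and Pgr reached the minimum of 3 arrays only in tumor. Their higher detection in tumor is therefore in part set by the filter. The remaining 23 were well above background on all 12 arrays by the probe used. Their other probes, where they had any, varied. Those of Rarb were seen on at most 2 arrays of either group, that of Nr1d2 on 1 of either group and that of Rora on 0. Those of Rxra (4 normal and 5 tumor arrays), Nr3c1 (4 and 3), Rorb (3 and 4) and Ppara (at most 2 and 4) lay between. Those of Rara, Nr1h3, Thra and Nr4a2 were seen on 6 of 6 arrays of either group.

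**Figure D2:**
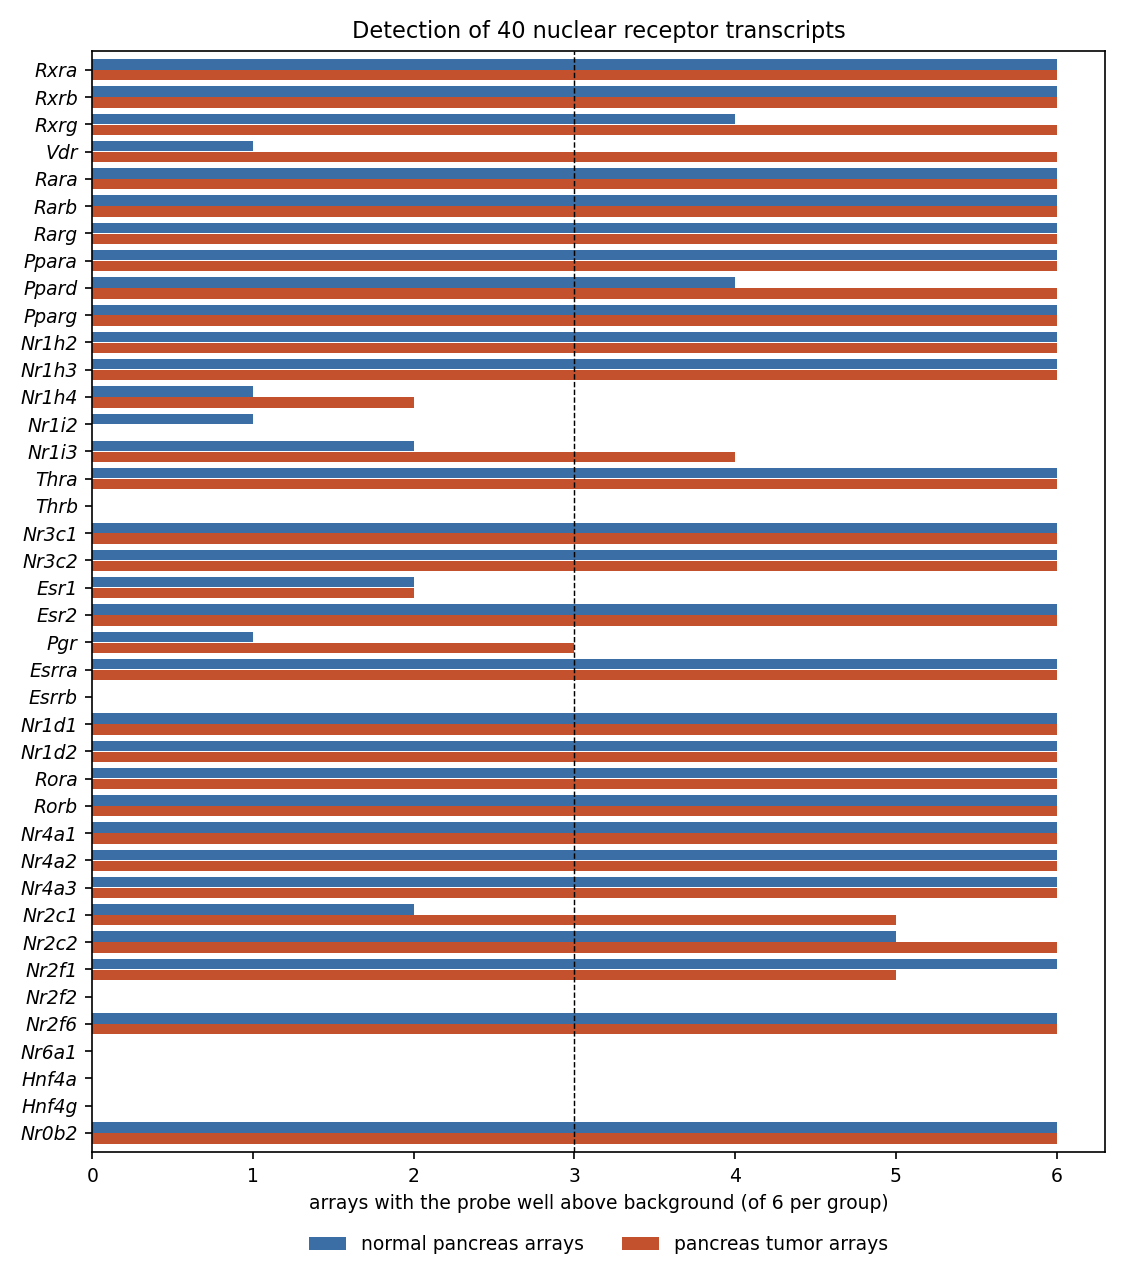
Number of arrays, of 6 per group, on which the probe used for each of the 40 receptors was well above background, in blue for normal and orange for tumor. The broken line marks the minimum of 3 arrays in either group for a test, and Vdr shows 1 normal against 6 tumor arrays.

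Vdr encodes the receptor of the hormonal form of vitamin D and is measured by 1 probe on chromosome 15 at 97685136 to 97685195 (mm9, the build of the array annotation, which gives no exon). In normal samples, in the order of replicates given above, its log2 signal was -2.93, -4.17, -5.21, -5.37 and -1.94. In tumor samples it was 0.21, -0.0078, -1.06, -1.28 and -0.49. Every tumor sample lay above every normal sample, the closest being tumor replicates 4 with 6 and normal replicate 6, and the normal samples were spread more widely. The means were -3.92 ± 1.48 in normal and -0.52 ± 0.65 in tumor samples (SD, n = 5 each), a difference of 3.40 ± 0.64 (SE; limma adjusted p = 0.0395). On the scanner's own scale the processed signal was 495 to 1434 on tumor arrays. On normal arrays it was 404 on replicate 6, 114 on replicate 1 and 22.57 to 26.01 on the other 4. The size of the difference therefore rests on values at background in most normal samples. With each signal raised to the lowest signal well above background on its array it was 4.56-fold (limma adjusted p = 0.0183), and with normexp background correction 2.43-fold (adjusted p = 0.0258).

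**Figure D3:**
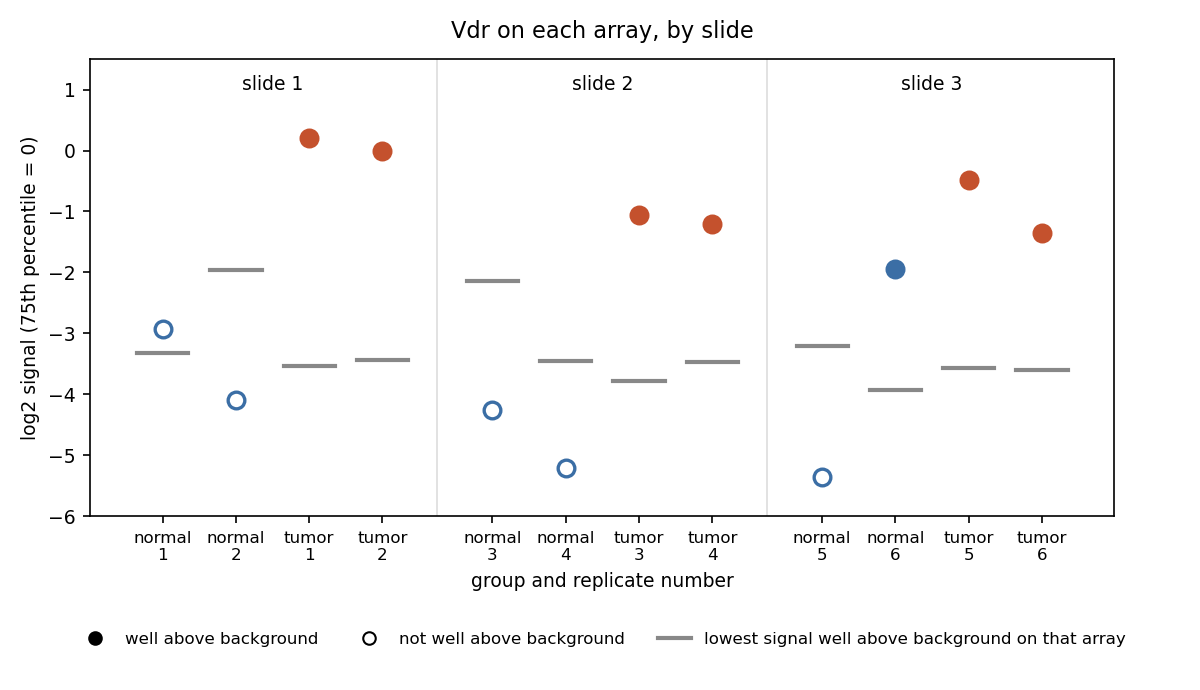
Log2 signal of the Vdr probe on each of the 12 arrays, grouped by slide, with filled points where it was well above background, open points where it was not, and a grey bar at the lowest signal well above background on that array. The tumor arrays lie above the normal arrays on each of the 3 slides, and only normal replicate 6 has a filled normal point.

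The arrays lay on 3 slides with 2 arrays of either group each. Within slides 1, 2 and 3 the Vdr difference was 3.61, 3.60 and 2.73, with limma adjusted p of 0.259, 0.194 and 0.901, and a model that held slide and sample name as blocks gave 3.36 (adjusted p = 0.0400). Sample names recur across slides, so the slides are not independent. Without 1 sample at a time the difference stayed between 3.04 and 3.89, but Vdr passed only without normal replicate 6 and missed without any of the other 9 samples (adjusted p from 0.00764 to 0.116 over the 10). With the acinar mean as a covariate the Vdr difference was 0.77 ± 1.19 (SE; limma adjusted p = 0.9999), in a model where the covariate separates the groups. The normal sample with the highest Vdr, replicate 6, had the lowest acinar mean of the normal samples (3.55). In normal replicates 1, 2 with 3, 4 and 5 the acinar mean was 5.68, 7.42, 6.22 and 6.58. Tumor replicates 1, 2, 3 and 4 with 6 had acinar means of -2.93, -1.91, -0.33 and 1.01, and Vdr fell in that order. Tumor replicate 5 departed from it, with the highest acinar mean of tumor samples (1.99) beside a Vdr level of -0.49. With the mean of the neutrophil and monocyte genes S100a8 and S100a9 as a covariate the Vdr difference was 2.94 (adjusted p = 0.233). That mean was highest in tumor replicates 1 and 2 (1.40 and 1.14), which also had the highest Vdr and the lowest acinar means. Among tumor samples it was lowest in replicate 5 (-4.83). What part these other cells have in the Vdr difference was not tested.

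The Vdr promoter is shown because Vdr was the one receptor called. The 250 bases before its start (RefSeq, GRCm38.p6, chr15:97908297-97908546, minus strand) hold 3 copies of the GC box GGGCGG, the letters that Sp1-type factors bind, in capitals here and searched on both strands.
Vdr: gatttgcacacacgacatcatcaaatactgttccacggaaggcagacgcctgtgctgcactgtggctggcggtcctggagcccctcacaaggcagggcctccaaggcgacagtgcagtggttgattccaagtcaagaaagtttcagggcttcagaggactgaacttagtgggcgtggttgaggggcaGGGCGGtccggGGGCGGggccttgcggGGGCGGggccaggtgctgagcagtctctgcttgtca
Of 32851 promoters of this length in the table, 32.7% held a GC box and 8.47% held at least 3. The share of G and C is 61.2% in the Vdr promoter, against a median of 52.4% over all promoters, and these shares were not matched for it. The DR3 element, the direct repeat on which VDR and RXR pair, was in none of the 54 member promoters (37 genes matched; Nr3c1, Thra and Hnf4g did not) and in 0.00609% of all promoters.

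Genes of vitamin D metabolism and genes known as Vdr targets had differences in both directions, 9 above 0 and 5 below. Of 18 such genes 14 were tested, 1 passed, and their median difference was 0.42. At an unadjusted limma p under 0.05, 3 had higher and 1 had lower tumor means, and 12.9% of all genes met that mark. For 2 of the 14 the groups did not overlap, both with tumor above, against 3.43% of all genes in either direction. The gene that passed was Hp, haptoglobin, a plasma protein that binds free hemoglobin, up 3.20 ± 0.43 in tumor samples (log2, SE; limma adjusted p = 0.00755), and it stands in the monocyte marker list as well. Nod2, a sensor of bacterial peptidoglycan, was well above background on 0 normal and 4 tumor arrays, and the groups overlapped. Each dim normal array was counted at the lowest signal well above background or its own, whichever was higher. This gave a lower bound of 1.13-fold between the means of normalized log2 values, which was not tested. As measured the difference was 1.91 (limma adjusted p = 0.298), and with dim signals of both groups raised it was 0.61 (adjusted p = 0.612). Irs2, an adaptor of the insulin receptor, was higher by 0.52 with no overlap of groups (adjusted p = 0.305). Cyp2r1, the enzyme of the first hydroxylation of vitamin D, differed by -0.70 (adjusted p = 0.308). The probes of Cyp27b1, which makes the hormone, and Cyp24a1, which breaks it down and is a classical target of the receptor, were not well above background on any array.

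The retinoid X receptors, the shared dimer partners, had 0 calls by limma and 0 at an unadjusted p under 0.05. Rxra had log2 signals of -0.62, -1.20, -1.37, -0.73 and 0.04 in normal and -1.57, -1.22, -0.70, -0.98 and -2.42 in tumor samples. The groups overlapped, with tumor replicate 5 lowest, and the difference was -0.60 ± 0.37 (SE; limma adjusted p = 0.526). A second Rxra probe, dimmer, gave -0.07. Rxrb differed by 0.07 with an interval of -0.38 to 0.52, one of the narrowest in the family, and Rxrg by 0.32 with an interval of -1.01 to 1.65. Of 19 coregulators tested, the proteins that these dimers exchange, 0 passed in limma (1 at an unadjusted p under 0.05), with a median of 0.035. Among them Ppargc1b, a coactivator of mitochondrial gene programs, had every tumor sample above every normal one (difference 1.84 ± 0.52, SE; limma adjusted p = 0.163).

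Among the retinoic acid receptors, Rara stood at 0.21, 0.36, -0.16, 0.92 and 0.81 in normal and 1.27, 1.82, 1.18, 0.53 and 1.01 in tumor samples. The groups overlapped through tumor replicates 4 with 6, which lay below normal replicates 5 and 6. The difference was 0.74 ± 0.30 (SE; limma adjusted p = 0.331), the second probe gave 0.54, and slides 1, 2 and 3 alone gave 1.34, 0.69 and -0.11. Rarb differed by 0.22 (interval -0.44 to 0.89) and Rarg by -0.01 (-0.44 to 0.42). Of 14 genes of retinoid metabolism and response tested, 0 passed in limma (2 at an unadjusted p under 0.05), with a median of 0.017. The smallest p in that list were those of the retinol dehydrogenase Dhrs9 (1.21, adjusted p = 0.280), the transglutaminase Tgm2 (0.99, 0.3496) and the retinaldehyde dehydrogenase Aldh1a1 (-1.84, 0.460).

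Of the fatty acid receptors 0 passed in limma, also at an unadjusted p under 0.05. Pparg, which directs lipid uptake and storage, had log2 signals of -0.21, -0.87, -0.42, -0.49 and -0.68 in normal samples. In tumor samples they were -1.15, -1.45, -1.31, -1.47 and 0.054. Of the 5 tumor samples 4 lay below every normal sample, and tumor replicate 5 lay above all of them. The mean difference was -0.53 ± 0.31 (SE; limma adjusted p = 0.505), and -0.81 without tumor replicate 5 (adjusted p = 0.172). Ppard had -1.83, -2.62, -2.76, -2.84 and -1.58 in normal and -2.07, -1.52, -1.52, -2.61 and -1.25 in tumor samples, which overlapped (difference 0.54 ± 0.35, adjusted p = 0.546). Ppara differed by -0.34 (interval -1.49 to 0.81). Of 15 PPAR targets tested 1 passed: Fabp5, a fatty acid carrier, rose by 2.54 ± 0.32 (SE; limma adjusted p = 0.00586). At an unadjusted limma p under 0.05, 1 target had a higher and 4 had a lower tumor mean. The list's median was -0.0017, and the scavenger receptor Cd36 (-1.95) and the carrier Fabp4 (-2.21) had negative differences that missed the threshold (adjusted p of 0.222 and 0.331).

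The oxysterol receptors Nr1h2 and Nr1h3, which drive cholesterol export, differed by 0.28 (interval -0.23 to 0.79) and 0.13 (-0.55 to 0.80), with both Nr1h3 probes alike (0.13 and 0.10). Their 16 listed targets had a median of 0.24 and 0 limma calls (5 at an unadjusted p under 0.05), but 1, Apoc2, passed in 10 of 27 alternatives. Apoc2, the cofactor of lipoprotein lipase, was closest, and no normal sample reached the tumor range (1.73 ± 0.35, SE; limma adjusted p = 0.0546, 0.00642 with normexp and 0.0479 with quantile normalization). Apoc1, another apolipoprotein, had all tumor samples below (-0.96, adjusted p = 0.223), and the cholesterol exporter Abcg1 differed by 1.38 (0.322). The xenobiotic receptor Nr1i3 was dim (0.25, interval -0.89 to 1.39).

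**Figure D4:**
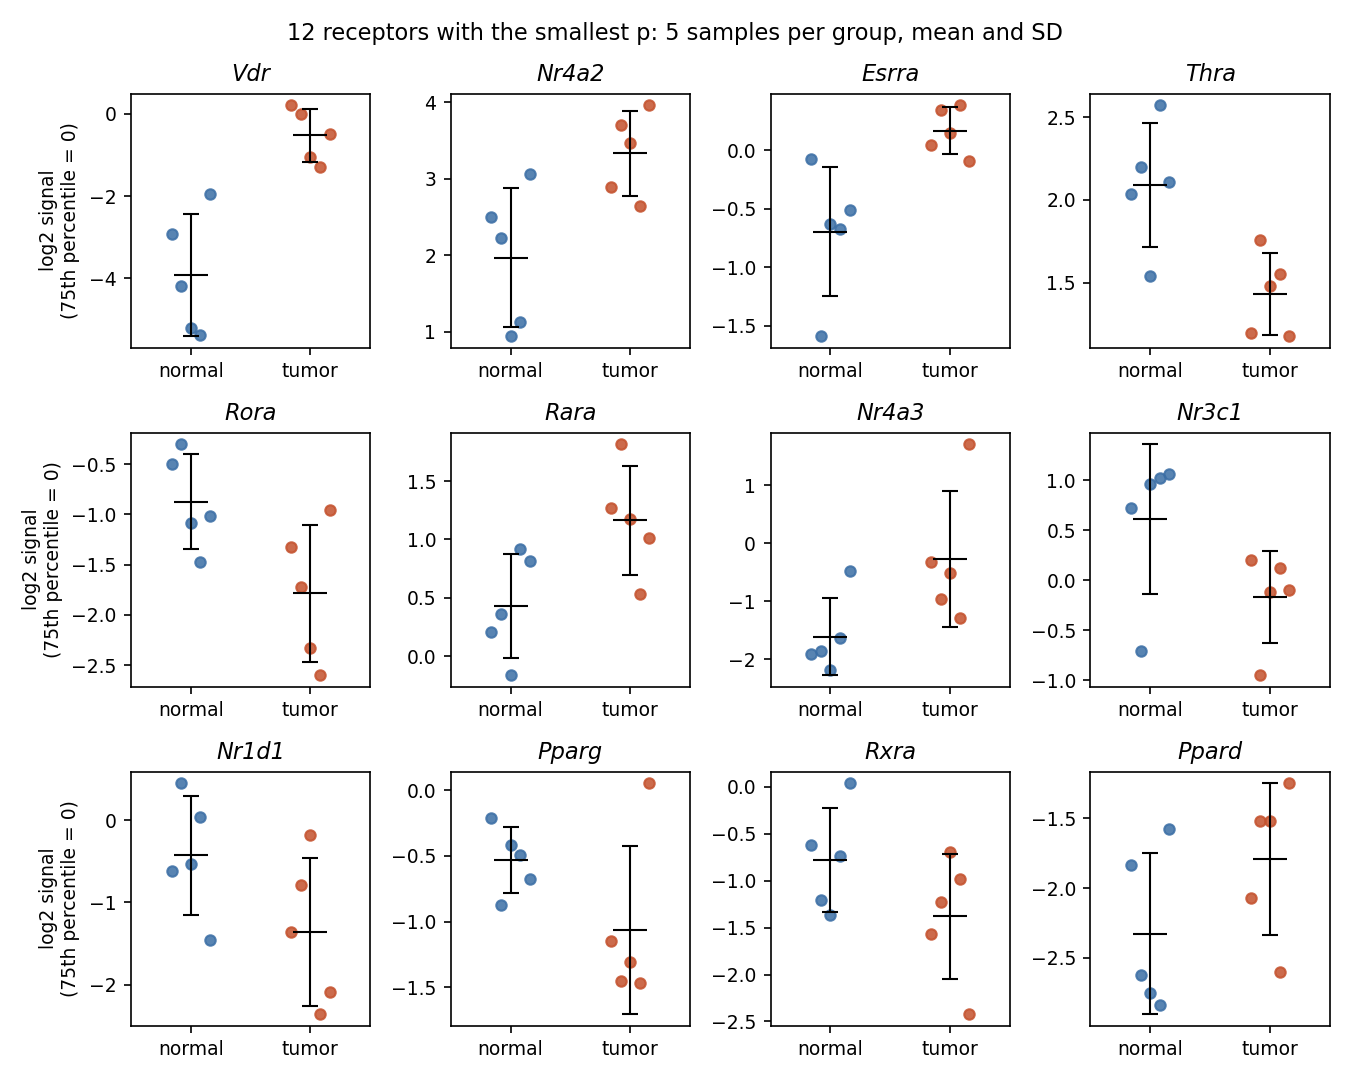
Log2 signal (0 at the array's 75th percentile) in each of 5 normal and 5 tumor samples for the 12 receptors with the smallest p, with the mean and SD (bars); each panel has its own vertical scale. The groups are apart for Vdr and overlap for the other 11.

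Thra encodes the thyroid hormone receptor that most tissues share. It had log2 signals of 2.04, 2.20, 1.54, 2.57 and 2.11 in normal and 1.19, 1.76, 1.48, 1.55 and 1.18 in tumor samples. The overlap came from normal replicate 4, below tumor replicates 2 and 4 with 6. The difference was -0.66 ± 0.24 (SE; limma adjusted p = 0.280). The second Thra probe, also well above background on all arrays, had every tumor sample below every normal one and a difference of -1.18 ± 0.24 (adjusted p = 0.0568). In the RefSeq gene table Thra overlaps the clock receptor gene Nr1d1, and Rara follows next among the listed receptors on chromosome 11. Nothing in the labels says that strand was kept, so signal from Thra and Nr1d1 where they overlap cannot be told apart. The probe used for Thra lies at 98626356 to 98626415, the second at 98617475 to 98618281 and that of Nr1d1 at 98630526 to 98631028 of chromosome 11 (mm9). These probe positions lie apart from one another, and whether any falls in the stretch that the genes share was not tested. Of 9 genes of thyroid hormone metabolism and response tested 0 passed in limma (2 at an unadjusted p under 0.05, median -0.24), with the smallest p for the lipogenic gene Thrsp (-1.77, adjusted p = 0.288), the hormone-binding Crym (-1.004, 0.357) and the amino acid and hormone carrier Slc16a10 (-0.67, 0.677).

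The steroid receptors gave 0 limma calls, also at an unadjusted p under 0.05. Nr3c1, the glucocorticoid receptor, had 0.72, -0.70, 0.97, 1.02 and 1.07 in normal and 0.21, -0.95, -0.11, 0.12 and -0.10 in tumor samples. Normal replicates 2 with 3, the dimmest arrays, lay far below the other normal samples, and those other 4 lay above all 5 tumor samples. The difference was -0.78 ± 0.38 (SE; limma adjusted p = 0.419), -1.11 without normal replicates 2 and 3 (adjusted p = 0.120), and -1.34 by the second probe, seen on 4 normal and 3 tumor arrays. Nr3c2, the mineralocorticoid receptor, differed by -0.62 (interval -1.55 to 0.30), the estrogen receptor Esr2 by 0.38 (-0.17 to 0.93) and the progesterone receptor Pgr by 0.05 (-0.94 to 1.03). Of 16 glucocorticoid receptor targets tested 1 passed: Zbtb16, a zinc finger repressor, fell by 1.17 ± 0.23 on the log2 scale (limma adjusted p = 0.0482). The Zbtb16 call was lost in 19 of 27 alternatives, among them quantile normalization (adjusted p = 0.0548), the authors' deposited log2 table (0.0560), normexp correction (0.128) and no filter on dim probes (0.0918), with a negative difference in each. Cdkn1c, a cell cycle inhibitor (-1.92, adjusted p = 0.0545), and Tsc22d3, which encodes the anti-inflammatory protein GILZ (-0.71, 0.1998), had groups that did not overlap, while the kinase gene Sgk1, another classical target, differed by 0.91 (0.266). The median of the list was -0.25. At an unadjusted limma p under 0.05, 1 of these targets had a higher and 3 had a lower tumor mean.

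Esrra encodes an orphan receptor that works with the PGC-1 coactivators on mitochondrial genes. It had -0.07, -1.59, -0.63, -0.67 and -0.51 in normal and 0.04, 0.34, 0.15, 0.39 and -0.09 in tumor samples. A single pair overlapped, as normal replicate 1 lay just above tumor replicate 5. The difference was 0.86 ± 0.28 (SE; limma adjusted p = 0.222) and within slides 0.997, 1.48 and 0.66. Of 10 genes of the Esrra program tested 0 passed in limma (4 at an unadjusted p under 0.05), and all 10 differences were above 0, against 49.7% of all genes, with a median of 0.52. With normexp correction 8 of the 10 were above 0, and 9 on each slide alone and with the acinar covariate. The mean of these 10 genes was -0.03 to 0.24 in normal and 0.67 to 0.86 in tumor samples. The coactivator Ppargc1b (1.84), the respiratory subunit Cox5a (0.81, adjusted p = 0.187) and the Krebs cycle enzyme subunit Idh3a (1.34, 0.240) had the smallest p. Ppargc1b stands in the coregulator list as well, and the shared direction of these genes was not tested.

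The 4 clock receptors had negative differences and 0 calls by limma (1, Rora, at an unadjusted p under 0.05), and Nr1d2 and Rorb turned positive on slide 1 alone. Rora, an activator of the clock's positive arm, stood at -0.50, -0.30, -1.09, -1.47 and -1.02 in normal and -1.33, -1.72, -2.33, -2.60 and -0.95 in tumor samples. Tumor replicates 1 and 5 lay inside the normal range and the other 3 below it (difference -0.91 ± 0.36, SE; limma adjusted p = 0.322). The second Rora probe was not well above background on any array. Nr1d1, the REV-ERB alpha repressor, had -0.62, 0.45, -0.53, 0.04 and -1.46 in normal and -1.36, -0.79, -0.18, -2.36 and -2.09 in tumor samples, which overlapped (-0.93 ± 0.47, adjusted p = 0.444). Nr1d2 differed by -0.34 (interval -1.22 to 0.53) and Rorb by -0.18 (-0.67 to 0.32). Of 11 clock genes tested 0 passed in limma (3 at an unadjusted p under 0.05), and 2, Bhlhe40 and Nfil3, passed with normexp correction. Of the 27 alternatives Bhlhe40 passed in 3 and Nfil3 in 1. The repressors Bhlhe40 and Nfil3 were higher by 1.498 and 1.32 (adjusted p of 0.124 and 0.175), and Dbp, a clock output gene, had every tumor sample below every normal one (-0.76, 0.247). The time of day of collection is not given in the sources used here.

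Within the Nr4a group, Nr4a2 and Nr4a3 had larger mean differences than Nr4a1, and 0 of the 3 passed in limma. Nr4a2 had 2.49, 2.23, 0.94, 1.13 and 3.05 in normal and 2.89, 3.70, 3.46, 2.64 and 3.96 in tumor samples. Normal replicate 6 lay inside the tumor range and the other 4 normal samples lay below it (difference 1.36 ± 0.44, SE; limma adjusted p = 0.221; second probe 0.88). Nr4a3 had -1.91, -1.86, -2.19, -1.63 and -0.49 in normal and -0.33, -0.96, -0.51, -1.29 and 1.71 in tumor samples, again with normal replicate 6 inside the tumor range and tumor replicate 5 highest (1.34 ± 0.54, SE; limma adjusted p = 0.332). Nr4a1 differed by 0.10 ± 0.22, with an interval of -0.40 to 0.59 and all samples between 4.59 and 5.36. The difference between Nr4a1 and the other two was not tested. Of 18 other immediate early genes 0 passed in limma (median 0.23), with an unadjusted p under 0.05 for 3 above 0 and 3 below. Jun, a subunit of the AP-1 factor (-0.75, adjusted p = 0.247), Klf4, a zinc finger factor of monocytes (0.92, 0.270), and Fosl2, an AP-1 partner (0.88, 0.276), had the smallest p.

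The promoters of the Nr4a genes are shown because the 3 are known to answer many of the same stimuli, so that their sequences can be read beside their values. Capitals mark the cAMP response half-site TGACG on either strand, so that the minus-strand match reads CGTCA. The regions lie at chr15:101266596-101266845 (plus), chr2:57124004-57124253 (minus) and chr4:48045055-48045304 (plus) of GRCm38.p6, as given by RefSeq.
Nr4a1: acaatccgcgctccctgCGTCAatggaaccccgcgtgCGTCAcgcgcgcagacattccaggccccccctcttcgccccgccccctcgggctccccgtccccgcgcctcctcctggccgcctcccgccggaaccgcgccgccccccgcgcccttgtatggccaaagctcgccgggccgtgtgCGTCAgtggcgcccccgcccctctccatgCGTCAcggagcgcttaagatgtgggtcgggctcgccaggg
Nr4a2: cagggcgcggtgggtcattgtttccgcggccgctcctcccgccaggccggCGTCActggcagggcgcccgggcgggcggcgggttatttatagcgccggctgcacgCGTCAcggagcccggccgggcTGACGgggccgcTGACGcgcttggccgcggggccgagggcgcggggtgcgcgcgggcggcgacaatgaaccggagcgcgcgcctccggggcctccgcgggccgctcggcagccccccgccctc
Nr4a3: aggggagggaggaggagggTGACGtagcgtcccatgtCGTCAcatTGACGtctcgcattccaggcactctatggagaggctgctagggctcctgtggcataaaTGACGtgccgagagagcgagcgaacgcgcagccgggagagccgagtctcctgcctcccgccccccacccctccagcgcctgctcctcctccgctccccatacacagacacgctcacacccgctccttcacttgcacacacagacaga
Each holds 4 half-sites. Of all promoters of this length 17.8% hold at least 1 and 0.137% at least 4, and of the other member promoters none holds more than 2. The share of G and C is 74.4%, 80.0% and 63.6% in the Nr4a1, Nr4a2 and Nr4a3 promoters, against a median of 52.4% over all promoters. The shares of half-sites were not matched for it. The full palindrome TGACGTCA, which contains the half-site on both strands, was in none of the 54 member promoters and in 1.55% of all promoters. Beside these equal counts of half-sites, the tumor differences of Nr4a1, Nr4a2 and Nr4a3 were 0.10, 1.36 and 1.34. Whether the half-sites bear on these differences was not tested.

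The remaining orphan receptors gave 0 limma calls, also at an unadjusted p under 0.05. Nr2c1, a testicular receptor, differed by 1.20 (interval -0.83 to 3.24), with normal samples from -5.09 to -1.92 and tumor samples from -5.58 to -0.09, and Nr2c2 by 0.17 (-1.04 to 1.38). The COUP factors Nr2f1 and Nr2f6 differed by -0.74 (-2.07 to 0.60) and -0.05 (-0.63 to 0.53), and Nr0b2, a corepressor-like receptor without a DNA-binding domain, by -0.47 (-1.79 to 0.85). Of 9 receptor genes outside the list 2 were tested, and the pancreatic receptor Nr5a2, a regulator of acinar genes, passed with a lower tumor mean (limma adjusted p = 0.0483). Its probe was well above background on 6 normal arrays and 1 tumor array, so the difference of -4.34 ± 0.86 (log2, SE) rests on tumor values at background. It was -2.58 with dim signals raised to the background limit of their array (adjusted p = 0.106) and -1.84 with normexp correction (0.0644). The Nr5a2 call was lost in 18 of 27 alternatives, also with quantile normalization (0.0695), the authors' deposited log2 table (0.0699) and no filter on dim probes (0.0533). With the acinar mean as a covariate the Nr5a2 difference was -0.13 (0.9999).

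**Figure D5:**
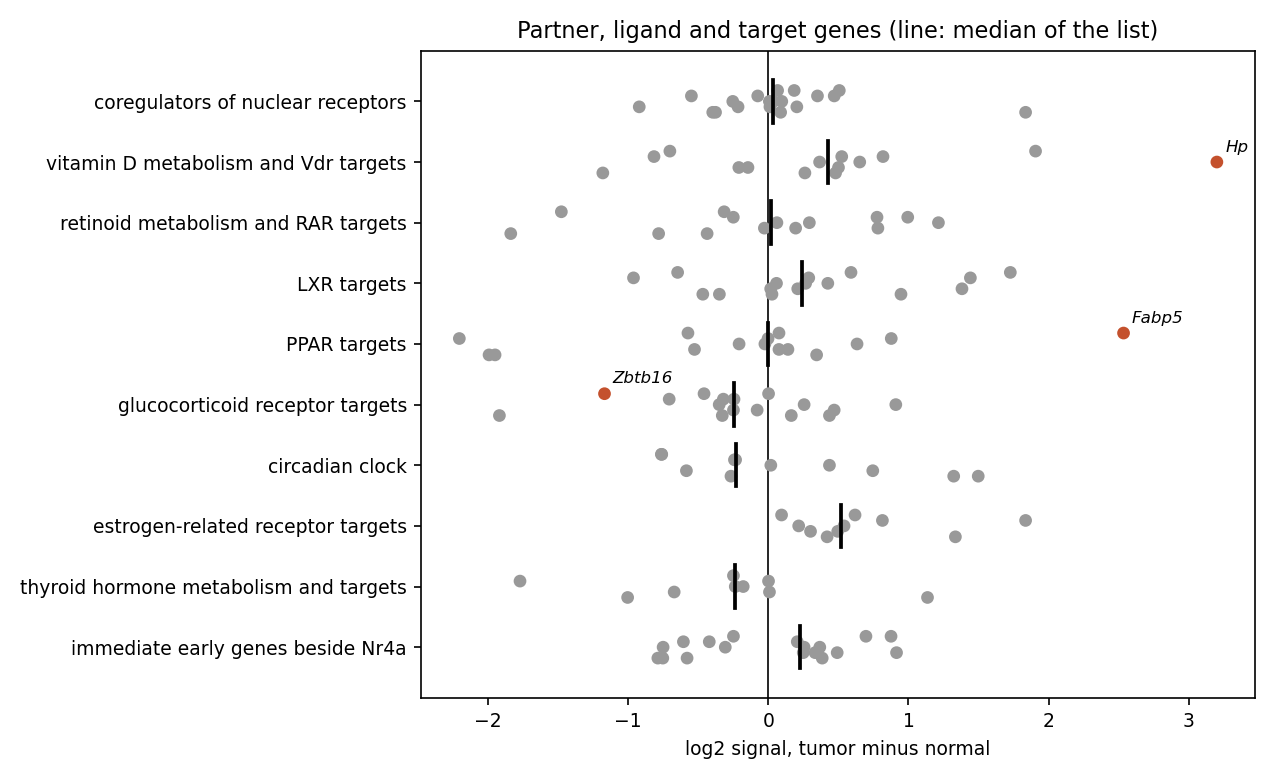
Difference in log2 signal, tumor minus normal, of each tested gene (points) in 10 lists of partner, ligand and target genes, with the median of each list as a bar. The 3 orange points passed the adjusted threshold: Hp, Fabp5 and Zbtb16, while all 10 points of the estrogen-related receptor list lie above 0.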

How the data were processed

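Per the labels' protocols, RNA of sorted cells was amplified to cDNA, labelled with Cy5 and hybridized to Agilent mouse arrays, read with Agilent Feature Extraction 11.5.1.1 per the submitters' processing notes. The intensity used is the deposited processed signal per spot, already background-subtracted. The log2 table that the authors deposited equalled quantile-normalized processed signals (column median 7.08) and served as an alternative.

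Control spots and outlier spots (0.401%) were left out, spots of a probe averaged, and each array's 75th percentile of log2 signal subtracted. Of 39429 probes, RefSeq's GRCm38.p6 table named 28025 by accession, 3413 by symbol and 295 by synonym, 4985 kept the file's name and 2711 had none. The test was limma's moderated linear model (limma 3.58.1, R 4.3.3, two-sided), adjusted by Benjamini-Hochberg across all 16387 genes at a threshold of 0.05, and checked on simulated data. Its median standard error was 0.36, and the number of arrays limits the precision. Arrays sharing a name correlated at 0.992 and 0.995, other pairs of 1 group at up to 0.967.

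The receptors and lists were chosen with earlier results of these data known, and lists share genes. The 12 receptors with the smallest p were described by sample, and of each target list the called genes and the 3 tested with the smallest p, except for results not reported here. Further list genes, and the promoters shown, were chosen after values were seen. Alternatives covered background correction, scaling, filters, probes, spot flags, slides, shared names, the variance model, covariates, the threshold and leaving out each sample. Normexp correction was run with an offset of 50.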

Additional observations from a re-analysis of the deposited data

Results flagged for a closer look

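In 5 of 62 receptor groups (31 receptors, normal and tumor) 1 sample stood apart from the other 4, where chance gives about 1 group in 20. Rxrg was lowest in tumor replicate 1, at -2.77 against -0.74 to 0.04 in the other tumor samples. Pparg was highest in tumor replicate 5, at 0.054 against -1.47 to -1.15. Nr3c1 was lowest in normal replicates 2 with 3, at -0.70 against 0.72 to 1.07, and, among tumor samples, in tumor replicate 2, at -0.95 against -0.11 to 0.21. Nr3c2 was highest in tumor replicate 1, at -1.23 against -2.76 to -2.34.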

How the results depend on the processing

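The Vdr difference was above 0 in all 27 alternatives and past the threshold in 13. The count of receptors called was 1 (Vdr) in the other alternatives and 0 on slides 1, 2 and 3 alone, with the acinar or the S100a8 and S100a9 covariate, and, by limma, without 9 of the 10 samples (0 to 1). On the slides alone 4, 6 and 1 receptors had an unadjusted p under 0.05, and with the covariates 1 and 5. The 136 genes called became 217 with normexp correction, 460 with 12 arrays as separate samples and 235 with trend and robust eBayes. They became 267 at an adjusted p under 0.1, 46 with the S100a8 and S100a9 covariate and 63 to 198 without 1 sample. With the acinar covariate 0 were called, with 502 at an unadjusted p under 0.05. On slides 1, 2 and 3 alone 0 were called, with 1587, 1570 and 947 at that mark. Of the 31 receptors 11 kept their sign in every alternative, and none but Vdr passed in any. Hp and Fabp5 passed in 22 of the 27, missing on the 3 slides alone and with either covariate. Without a filter on dim probes the median of all genes moved to -0.26. The option with signals raised to the lowest signal above background was added after the data were seen. No paired analysis was possible because the labels give no replicate numbers that pair samples of the groups.

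Limits: 5 samples per group, 2 of the names on repeated arrays, and a typical error of 0.36 on the log2 scale leave small differences unresolved, and the smallest difference called in any gene was 1.01. For Vdr in normal samples, and for Nr5a2 in tumor samples, signal lies near background, so that the fold depends on the correction.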
